A study of Homo sapiens with 12 samples.

Results

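Trichostatin A (TSA) and S2101 were compared in 3 human carcinoma lines: MHCC97H, derived from a hepatocellular carcinoma, A549, from a lung adenocarcinoma, and HCT116, from a colorectal carcinoma. The comparison takes the 6 libraries labelled as treated with either compound, 3 of each, out of 12 in the series, and pairs them by line. TSA was given at 1 µM and S2101 at 100 µM, and the untreated library of each line serves below as a reference for direction. The medium was DMEM for MHCC97H and A549 and RPMI for HCT116, and an effect of medium cannot be told apart from the line. How long the cells were treated, and in which vehicle, is not given in the labels. The doses differ 100-fold, so the compounds were not compared at matched exposure. Each line gave 1 library per condition. The replicates are therefore the 3 lines (n = 3 per compound), and no spread between repeat cultures of a line was measured.

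Histone deacetylases (HDACs) remove acetyl groups from histone tails, which tends to keep genes packed and silent, and TSA blocks the zinc-dependent members of the family. S2101 is an inhibitor of LSD1 (gene KDM1A), a demethylase that removes methyl marks of active promoters and enhancers. The targets of the compounds meet in 1 complex: LSD1 is held by the scaffold RCOR1 (CoREST) together with HDAC1 and HDAC2, and the repressor REST brings that complex to neuronal genes in cells that are not neurons.

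The 6 libraries held 14626512 to 19061367 gene counts, so that 3 reads made 0.157 to 0.205 CPM (reads scaled to the library total). Levels below are CPM scaled by edgeR's TMM factors and are always listed in the order MHCC97H, A549, HCT116. In poly(A) RNA of whole cultures, fewer cells of a kind and less RNA per cell cannot be told apart. KDM1A itself read at 105, 138 and 254 CPM untreated, 93.6, 93.8 and 218 with S2101 and 94.5, 110 and 189 with TSA, and the fit gave no call for it between the compounds. Epithelial markers were present in every library, with 5 or 6 of 6 detected at 1 CPM or more. Liver and lung markers were weak, and colon markers did not follow the origin of the line. Liver markers summed to 159 and 84.0 CPM in the S2101 and TSA libraries of MHCC97H, with ALB under 1 CPM in both. Lung markers summed to 102 and 111 CPM in the S2101 and TSA libraries of A549. Colon markers summed to 2850 and 1420 CPM in those of MHCC97H, with 7 and 6 of 12 detected. In HCT116 they summed to 15.1 and 21.2 CPM, with 1 of 12 detected with S2101 and 5 with TSA. Markers of blood, stromal and endothelial cells summed to 51.3 to 216 CPM with S2101 and 89.9 to 236 CPM with TSA, with 3 and 4 to 8 of 11 detected. Their part in the results was not tested.

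One library stood apart. Genes with no read in the untreated library of a line and at least 5 CPM with TSA were summed in its S2101 library. Over such genes the S2101 library came to 0.851% of the TSA level in MHCC97H (45 genes) and 1.28% in HCT116 (6 genes), but to 7.99% in A549 (39 genes). All 39 of those genes had a read in the A549 S2101 library, with a median of 8.15% of the TSA level. Whether reads of the A549 TSA library form part of the A549 S2101 library was not tested, so A549 S2101 levels of genes that are high with TSA are uncertain. List counts and calls of named genes are also given without that library where they change.

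Across the 16929 genes that passed the filter on low counts, edgeR's quasi-likelihood test on all 12 libraries, with condition and cell line as terms and Benjamini-Hochberg adjustment, called 4505 genes between the compounds at adjusted p under 0.05 (26.6%). Of these, 2291 were higher with TSA (13.5% of genes tested) and 2214 higher with S2101 (13.1%). The differences were unequal in size. The median log2 difference was 1.64 among genes higher with TSA and -1 among genes higher with S2101, and 967 against 235 genes differed at least 4-fold. Past 16-fold the counts were 171 and 25. The difference had 1 sign in all 3 lines for 4313 called genes (95.7%, against 50.9% of all genes tested), and the TSA and S2101 libraries did not overlap for 2324 (51.6%, against 18.6% of all genes tested). The calls were made on these same libraries, which favours both shares.

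**Figure D1:**
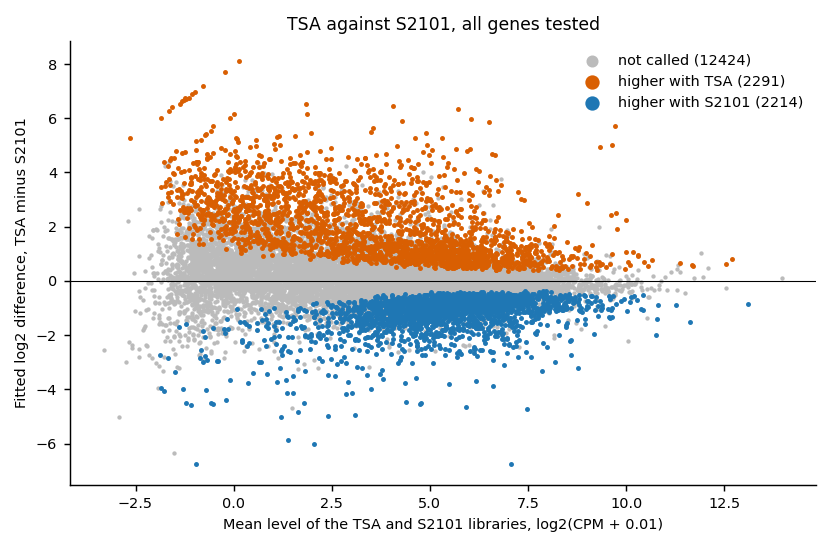
Fitted log2 difference between TSA and S2101 (vertical axis) against the mean level of the 6 libraries (horizontal axis, log2 scale), 1 point per gene tested, with the 2291 genes called higher with TSA and the 2214 called higher with S2101 in colour. Large differences in favour of TSA sit at low levels, and genes higher with S2101 sit mostly at middle and high levels.

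Level and direction went together. In the fifth of genes with the lowest mean level (0.12 to 2.19 CPM), 611 genes were called higher with TSA and 59 higher with S2101. In the fifth with the highest level (69.1 to 15800 CPM) the counts were 341 and 824. A gene near 0 untreated and with S2101 could pass the filter on low counts through its TSA libraries. That favours calls higher with TSA at low levels. Long non-coding RNAs were called higher with TSA in 13.9% of 1149 genes and higher with S2101 in 3.13%, and protein-coding genes in 13.6% and 14.4% of 14890. The antisense and overlapping genes among them are uncertain, since the counting of strand is not given in the sources used here.

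These calls lean on the model and on 2 of the lines. Leaving out MHCC97H left no gene called, with 4245 genes at an unadjusted p under 0.05 and a smallest adjusted p of 0.0626. Leaving out A549 left 17 genes, 14 higher with TSA and 3 higher with S2101, whereas leaving out HCT116 gave 5144. A fit on the 6 libraries alone, which has few degrees of freedom, also called 0 genes, with 4647 at an unadjusted p under 0.05. Without the A549 S2101 library alone, 1926 genes were called (11.4% of 16875), 878 higher with TSA (5.20%) and 1048 higher with S2101 (6.21%). These shares by direction are the ones to set beside the list counts given below without that library. DESeq2 called 5572. Direction was steadier than the calls: every called gene that these edgeR fits could test kept its sign. These fits reuse the libraries on which the genes were called, so a kept sign was favoured and is not independent evidence. Among the 161 called genes named below or in the closing section, 99 passed without the A549 S2101 library, 139 without HCT116, 6 without A549 and 0 without MHCC97H.

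**Figure D2:**
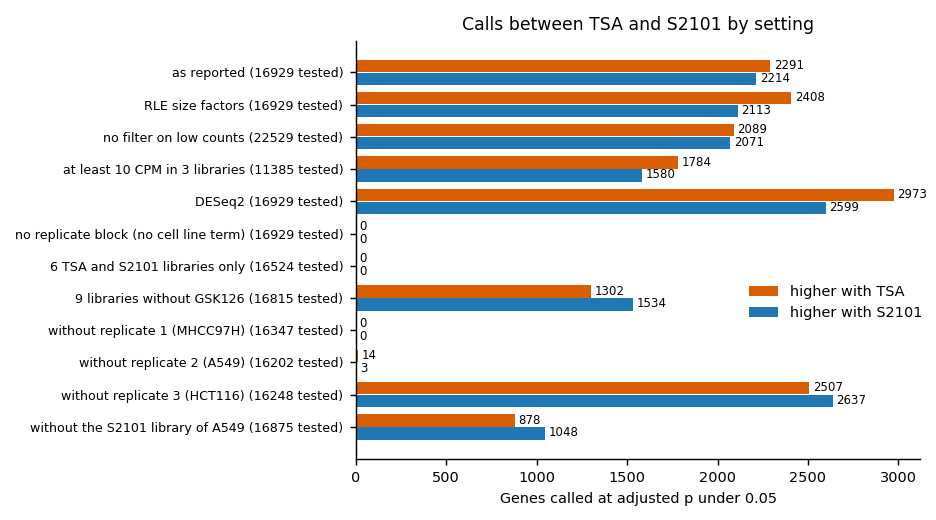
Number of genes called at adjusted p under 0.05 (horizontal axis) higher with TSA or higher with S2101 under each setting, 1 pair of bars per setting. Counts fall to 0 without MHCC97H, without the cell line term and in the fit on 6 libraries, and rise without HCT116 to 2507 and 2637.

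Measured from the untreated library, TSA accounted for most of the distance. In MHCC97H, A549 and HCT116, TSA lay farther from untreated than S2101 for 94, 95 and 84.8% of the called genes. Their median absolute log2 distance from untreated was 1.15, 1.24 and 0.68 for TSA and 0.19, 0.26 and 0.18 for S2101. In the same fit TSA against untreated gave 2947 higher (17.4%) and 2904 lower genes (17.2%), and S2101 against untreated gave 0, with 852 genes at an unadjusted p under 0.05 and a smallest adjusted p of 0.939. These comparisons share the untreated and the treated libraries. Untreated lay between the compounds in all 3 lines for 249 genes with TSA above and 347 with TSA below. TSA lay beyond S2101 on the same side in all 3 lines for 452 genes above untreated and 653 below. S2101 lay beyond TSA for 1 gene.

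The corepressor machinery itself differed between the compounds at a few subunits. Of 20 tested class I HDAC and LSD1-CoREST genes, 2 were higher with TSA (10%, against 13.5% of all genes tested). Another 5 were higher with S2101 (25%, against 13.1%). The list's median log2 difference of -0.08 lay near the 0.06 of all genes tested. Without the A549 S2101 library the counts were 1 and 2. HDAC3, the catalytic subunit of the NCoR and SMRT corepressor complexes, read at 28.2, 44.7 and 72.1 CPM with S2101 and 109.6, 127 and 92.02 CPM with TSA (log2 difference 1.33 ± 0.28, SE, adjusted p = 0.0114). Every TSA library was above every S2101 library. KDM1B, the second LSD-family demethylase, read at 22.2, 32.7 and 39.3 CPM with S2101 and 134, 112 and 57.98 CPM with TSA (log2 difference 1.72 ± 0.34, SE, adjusted p = 0.00916). The gap was widest in MHCC97H and smallest in HCT116. CTBP2, a corepressor that binds LSD1 complexes, went the other way, from 71.3, 102 and 127 CPM with S2101 to 18.4, 21.9 and 86.9 CPM with TSA (log2 difference -1.5 ± 0.32, SE, adjusted p = 0.0109). ZMYM2, a zinc finger subunit of LSD1 complexes, was also lower with TSA (31.6, 56.02 and 74.6 CPM with S2101 and 17.2, 26.3 and 36.7 CPM with TSA, log2 difference -0.99 ± 0.16, SE, adjusted p = 0.00503). REST, the factor that recruits the complex, was lower with TSA in each line (72, 51.97 and 72.1 CPM with S2101 and 35.8, 35.6 and 61.7 CPM with TSA, log2 difference -0.58 ± 0.17, SE, adjusted p = 0.0347). HDAC1 (log2 difference 0.3 ± 0.17, SE, adjusted p = 0.216), HDAC2 (log2 difference -0.38 ± 0.14, SE, adjusted p = 0.07), KDM1A (log2 difference 0.01 ± 0.15, SE, adjusted p = 0.964) and RCOR1 (log2 difference 0.05 ± 0.25, SE, adjusted p = 0.909) were not called, and their libraries overlapped. HDAC3 (adjusted p = 0.052) and REST (0.0934) did not pass without the A549 S2101 library.

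Among the other HDACs and acetyltransferases, none of 16 was higher with TSA and 4 were higher with S2101 (25%, against 13.1% of all genes tested), and none of them passed without the A549 S2101 library. HDAC7, a class II HDAC, read at 68.4, 51.1 and 34.9 CPM with S2101 and 6.63, 6.97 and 23.8 CPM with TSA (log2 difference -1.96 ± 0.59, SE, -3.08 without HCT116, adjusted p = 0.0378). HDAC4, of the same class, was at 42.4, 39.8 and 39.2 CPM with S2101 and 28.6, 19.8 and 19.2 CPM with TSA (log2 difference -0.86 ± 0.22, SE, adjusted p = 0.0203). The acetyltransferase gene KAT2A read at 67.03, 72.98 and 46.4 CPM with S2101 and 32.5, 30.6 and 35.2 CPM with TSA (log2 difference -0.87 ± 0.21, SE, adjusted p = 0.0191). In HDAC7, HDAC4 and KAT2A the TSA libraries lay below all S2101 libraries, and the gap was smallest in HCT116 for HDAC7 and KAT2A and in MHCC97H for HDAC4. KAT6B was the fourth (log2 difference -0.9 ± 0.3, SE, adjusted p = 0.0493), and its HCT116 libraries held about the same level. Of 11 tested subunits of PRC2, the complex that methylates histones to silence genes, JARID2 was higher with TSA (log2 difference 0.66 ± 0.17, SE, adjusted p = 0.0235), and PHF19 (log2 difference -1.58 ± 0.51, SE, -2.44 without HCT116, adjusted p = 0.0472) and RBBP4 (log2 difference -0.84 ± 0.14, SE, adjusted p = 0.00491) were higher with S2101. EZH2, its catalytic subunit, was not called (log2 difference -0.00 ± 0.24, SE, adjusted p = 0.993). The PRC2 calls came to 9.09% of the list higher with TSA and 18.2% higher with S2101, beside 13.5 and 13.1% of all genes tested. HDAC7 (adjusted p = 0.101), HDAC4 (0.0817), KAT2A (0.0717), KAT6B (0.134), JARID2 (0.108) and PHF19 (0.141) did not pass without the A549 S2101 library.

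Genes known to rise when HDACs are inhibited separated the compounds. Of 16, 14 were higher with TSA (87.5%, against 13.5% of all genes tested), 1 (GLRX) was higher with S2101 and 1 (KLF6) was not called. The median log2 difference was 2.03. DHRS2, a short-chain dehydrogenase (chr14:23630115-23645639), read at 0.405, 209.9 and 7.86 CPM with S2101 and 30.1, 2553 and 1994 CPM with TSA (log2 difference 5.03 ± 0.98, SE, 4.32 without HCT116 and 7.71 without the A549 S2101 library, adjusted p = 0.00851). TSA was far above S2101 within each line, but the A549 S2101 library lay above the MHCC97H TSA library. CDKN1A (chr6:36676463-36687332), which encodes the cell cycle inhibitor p21, read at 30.3, 44.1 and 144 CPM untreated and 111, 72.6 and 174 CPM with S2101 and 649, 252 and 472 CPM with TSA (log2 difference 2.04 ± 0.43, SE, adjusted p = 0.0106). S2101 also sat above untreated in all 3 lines, and TSA was highest in each. H1F0, the linker histone of non-dividing cells, was at 202, 384 and 514 CPM with S2101 and 622, 1944 and 1569 CPM with TSA (log2 difference 1.92 ± 0.38, SE, adjusted p = 0.00878). TXNIP, a thioredoxin-binding arrestin, was higher with TSA in MHCC97H and A549 and near 0 in HCT116 with either compound (12.8, 26.9 and 0.0549 CPM with S2101 and 169, 305 and 0.1203 CPM with TSA, log2 difference 3.46 ± 0.81, SE, 4.47 without the A549 S2101 library, adjusted p = 0.0161). Without the A549 S2101 library 11 of the 16 passed as higher with TSA. 

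Most of the canonical histone genes tested were higher with TSA. They sit in clusters and are normally copied during DNA replication into RNA that ends in a stem-loop rather than a poly(A) tail. Of 42 tested among 73 listed, 35 were higher with TSA, none was higher with S2101 and 7 were not called (13.5% of all genes tested were called higher with TSA). The median log2 difference was 2.99. The 31 others did not pass the filter on low counts. A member near 0 untreated and with S2101 could pass it through its TSA libraries, so the 35 of 42 depends partly on that filter. When the A549 S2101 library was left out 20 of 43 passed. Because poly(A) RNA was selected, these values count only the tailed transcripts, and near-identical copies may share reads. Most members were low. HIST1H1E, a linker histone, read at 0.289, 0.982 and 0.604 CPM with S2101 and 8.28, 8.63 and 5.29 CPM with TSA (log2 difference 3.61 ± 0.71, SE, adjusted p = 0.00883). HIST1H4H read at 0.5205, 1.83 and 0.0549 CPM with S2101 and 5.57, 14.7 and 4.03 CPM with TSA (log2 difference 3.69 ± 0.58, SE, 4.43 without A549, adjusted p = 0.00443). For both genes each TSA library was above all S2101 libraries. HIST1H2BF had 82 reads over the TSA libraries and 2 over the S2101 libraries, a ratio of 47.4 (95% exact counting interval 12.7 to 398). HIST1H4I had 50 and 3 reads, a ratio of 19.2 (6.22 to 96.5). HIST1H4I (adjusted p = 0.0957) did not pass without the A549 S2101 library. HIST1H2BF and HIST1H4I were not tested without HCT116.

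The promoters of histone genes share short elements, and the 2 genes just described are shown because they carry different ones. Each line holds 300 bases from RefSeq (GRCh38.p14), 250 before to 50 after the gene's start, 5′ to 3′ on the gene's strand, with searched motifs in capitals. HIST1H1E lies at chr6:26156079-26156378 on the plus strand and HIST1H4H at chr6:26285485-26285784 on the minus strand.
HIST1H1E promoter: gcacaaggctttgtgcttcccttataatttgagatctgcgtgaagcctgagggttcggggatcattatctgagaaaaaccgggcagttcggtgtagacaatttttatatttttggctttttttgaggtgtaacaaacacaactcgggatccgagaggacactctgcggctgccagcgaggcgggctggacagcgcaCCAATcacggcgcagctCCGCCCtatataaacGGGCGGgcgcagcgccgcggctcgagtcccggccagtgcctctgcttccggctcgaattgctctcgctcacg
HIST1H4H promoter: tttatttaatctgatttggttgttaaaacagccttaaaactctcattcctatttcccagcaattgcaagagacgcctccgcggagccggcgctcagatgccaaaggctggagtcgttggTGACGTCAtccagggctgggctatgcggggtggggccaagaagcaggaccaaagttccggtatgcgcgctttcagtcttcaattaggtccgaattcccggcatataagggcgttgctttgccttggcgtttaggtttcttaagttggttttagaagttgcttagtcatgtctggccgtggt
Capitals mark CCAAT and GGGCGG, on either strand, in HIST1H1E, and TGACGTCA in HIST1H4H. The motifs searched were CCAAT (the box that NF-Y binds), GGGCGG (a box of the Sp1 family), TTTGAA (the core of the cell cycle homology region), TGACGTCA (the cyclic AMP response element) and a sterol regulatory element. Each was searched on both strands, and none contains another. Of 65 histone promoters in the table, 84.6% held CCAAT, against 35.7% of all 27305 promoters, 42.8% of 1729 promoters of genes called higher with TSA and 29.8% of 1785 of genes called higher with S2101. TGACGTCA was held by 13.8% of histone promoters and 1.98% of all promoters. GGGCGG was held by 27.7% and 44.6%. Histone promoters were also poorer in GC, with a median of 43.3% against 58.3%. Among the 12882 promoters of genes tested the shares were 36.3% for CCAAT, 3.0% for TGACGTCA and 66.3% for GGGCGG, with a median GC of 64.7%. A match describes these letters and is not evidence of binding.

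Histone genes outside the clusters were mixed. Of 10 replacement and linker histones, 4 were higher with TSA (40%, against 13.5% of all genes tested). Another 2 were higher with S2101 (20%, against 13.1%). The counts were 3 and 1 without the A549 S2101 library. H1FX, a linker histone, read at 99.3, 116 and 85.3 CPM with S2101 and 162, 237 and 349 CPM with TSA (log2 difference 1.24 ± 0.25, SE, adjusted p = 0.0101). H2AFJ, an H2A variant, was higher with TSA within each line (log2 difference 1.37 ± 0.27, SE, adjusted p = 0.00869). H2AFY2, a macroH2A gene, went the other way, from 0.347, 29.1 and 53.8 CPM with S2101 to 0.133, 2.59 and 10.9 CPM with TSA (log2 difference -2.68 ± 0.4, SE, -2.09 without A549, adjusted p = 0.00387). It was nearly absent in MHCC97H with either compound.

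The largest single differences in favour of TSA were mostly in genes that were near 0 both untreated and with S2101. The 12 leading genes with a mean of at least 5 CPM were MMP10, LRRC15, STC1, PAEP, ZCCHC12, LINC00659, SYT11, PEG10, RFPL4A, COL26A1, FABP4 and RPL3L, with log2 differences from 5.45 to 6.51. LRRC15 (chr3:194355249-194369743), a leucine-rich repeat membrane protein, read at 0.347, 0.262 and 0.0549 CPM with S2101 and 90.6, 7.03 and 1.68 CPM with TSA (log2 difference 6.45 ± 0.79, SE, 4.77 without MHCC97H and 7.49 without A549, adjusted p = 0.00273). Its level with TSA fell from MHCC97H to A549 to HCT116, and all 3 lay above every S2101 library. MMP10, a secreted matrix metalloproteinase, had 327 reads over the TSA libraries and 3 over the S2101 libraries, a ratio of 126 (95% exact counting interval 42.7 to 614). Most of those reads came from MHCC97H, where TSA gave 18.4 CPM against 0.74 in A549 and 2.23 in HCT116. PEG10, an imprinted gene derived from a retrotransposon, was the most abundant of the set, with 4.97, 334 and 23.6 CPM with S2101 and 2143, 1761 and 809.7 CPM with TSA (log2 difference 5.71 ± 1.11, SE, 3.81 without MHCC97H and 7.18 without A549, adjusted p = 0.00846). ZCCHC12, a zinc finger protein, read at 0.231, 7.33 and 1.43 CPM with S2101 and 202, 86.5 and 96.6 CPM with TSA (log2 difference 5.96 ± 1.16, SE, 4.49 without MHCC97H and 7.9 without A549, adjusted p = 0.00848).

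Several of these genes had a single line behind them or an S2101 level in A549 alone. STC1, which encodes the hormone stanniocalcin, read at 0, 62.2 and 0 CPM with S2101 and 51.4, 196 and 3.19 CPM with TSA (log2 difference 6.35 ± 1.76, SE, 3.14 without MHCC97H and 11.36 without A549, adjusted p = 0.0289), so the A549 S2101 library was above 2 of the TSA libraries. RPL3L, a muscle paralog of a ribosomal protein, read at 0.0578, 10.2 and 0.0549 CPM with S2101 and 3.91, 123 and 42.5 CPM with TSA (log2 difference 5.45 ± 0.91, SE, 4.1 without HCT116 and 8.27 without A549, adjusted p = 0.00536). RFPL4A showed the same layout at a lower level (0.0578, 2.81 and 0 CPM with S2101 and 18.5, 30.5 and 18.9 CPM with TSA, log2 difference 5.63 ± 0.98, SE, 4.77 without HCT116 and 9.06 without A549, adjusted p = 0.00598). PAEP, which encodes glycodelin, was carried by MHCC97H (0.231, 0 and 0 CPM with S2101 and 20.8, 0.863 and 0.0601 CPM with TSA, log2 difference 6.17 ± 0.69, SE, adjusted p = 0.00229). LINC00659, a long non-coding RNA, was carried by HCT116 (0.0578, 0 and 1.26 CPM with S2101 and 1.39, 0.555 and 114 CPM with TSA, log2 difference 5.9 ± 0.74, SE, adjusted p = 0.00284). COL26A1, a collagen gene, was at 13.2 to 36.1 CPM with TSA and at most 3.08 with S2101 (log2 difference 5.49 ± 0.88, SE, 4.74 without MHCC97H and 7.93 without A549, adjusted p = 0.00476). FABP4, a fatty acid carrier of fat cells, was at 1.5 to 19.6 CPM with TSA and at most 0.131 with S2101 (log2 difference 5.46 ± 0.87, SE, 3.77 without MHCC97H and 6.41 without HCT116, adjusted p = 0.00679). STC1 (adjusted p = 0.0917) did not pass without the A549 S2101 library. MMP10 (adjusted p = 0.0501) and STC1 (0.0978) did not pass without HCT116. LINC00659 was not tested without HCT116.

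**Figure D3:**
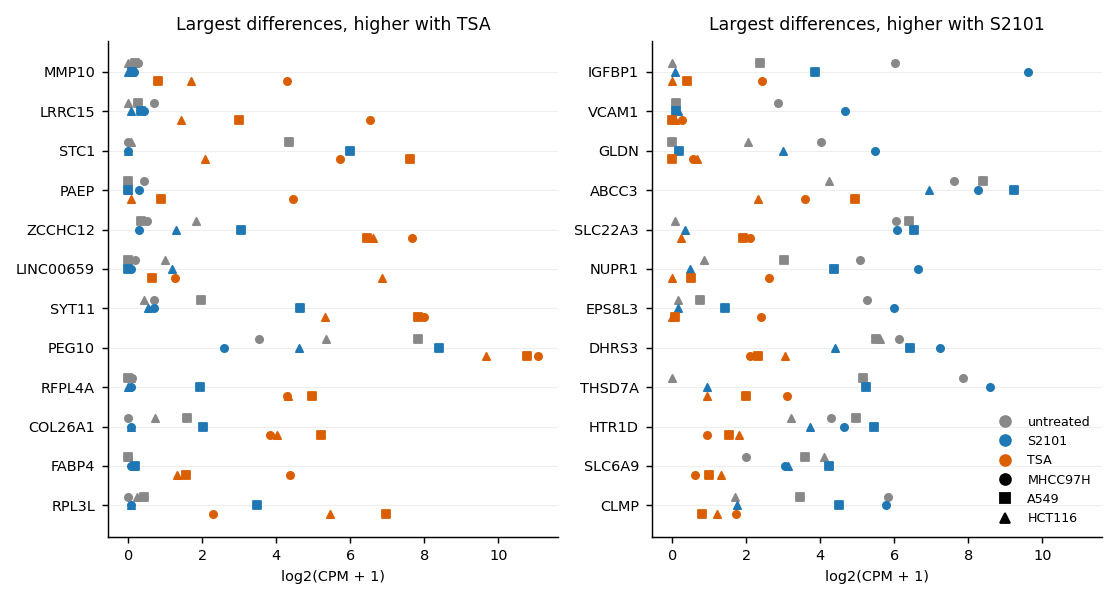
Level of the 12 leading genes in each direction, log2(CPM + 1) (horizontal axis), 1 point per library, coloured by condition and shaped by line. In the left panel most S2101 points lie near the untreated points, less so in A549. In the right panel TSA lies to the left of S2101 in each line.

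Neuronal genes, many of which REST holds silent through the complex both compounds touch, were higher with TSA. Of 28 tested, 16 were called higher with TSA (57.1%, against 13.5% of all genes tested), 1 (SCG5) higher with S2101 and 11 were not called. A member near 0 untreated and with S2101, such as STMN2, could pass the filter on low counts through its TSA libraries. That favours calls higher with TSA, and the share was not compared with genes of matched level. The median log2 difference was 2.48. Against untreated the list's median was 3.11 with TSA and 0.53 with S2101, values that share the untreated libraries. VGF, a neurosecretory protein, read at 3.44, 10.1 and 51.9 CPM untreated and 4.395, 52.2 and 91.8 CPM with S2101 and 513, 443 and 2748 CPM with TSA (log2 difference 4.95 ± 0.71, SE, 3.88 without MHCC97H and 6.06 without A549, adjusted p = 0.00379). All 3 TSA libraries were above all S2101 libraries. SYT11, a vesicle trafficking protein of the synaptotagmin family (chr1:155859567-155885199), read at 0.636, 23.9 and 0.439 CPM with S2101 and 254, 227 and 38.97 CPM with TSA (log2 difference 5.88 ± 0.95, SE, 4.41 without MHCC97H and 7.76 without A549, adjusted p = 0.00482). SYP, which encodes synaptophysin of synaptic vesicles, read at 0.5205, 11.1 and 1.21 CPM with S2101 and 80.4, 73.6 and 20.7 CPM with TSA (log2 difference 4.63 ± 0.89, SE, 3.21 without MHCC97H and 6.07 without A549, adjusted p = 0.00804). The TSA libraries lay above the S2101 libraries for both genes. STMN2, a neuronal tubulin-binding protein, had no read in the S2101 libraries and 107 in the TSA libraries, at least 41.2-fold higher with a floor of 3 reads set on the 3 libraries together. NEFH, a neurofilament, rose mainly in A549 (0.116, 5.89 and 0.1099 CPM with S2101 and 0.0663, 80.3 and 0.481 CPM with TSA, log2 difference 2.84 ± 0.93, SE, 2.11 without the A549 S2101 library, adjusted p = 0.0496). NCAM1, a neural adhesion molecule, read at 0.347, 3.21 and 0.385 CPM with S2101 and 0.795, 35.1 and 73.1 CPM with TSA (log2 difference 4.2 ± 1.17, SE, 2.9 without HCT116 and 5.86 without the A549 S2101 library, adjusted p = 0.0293). After dropping the A549 S2101 library 7 of the 28 passed as higher with TSA. NEFH (adjusted p = 0.352) did not pass without the A549 S2101 library. NEFH (adjusted p = 0.0598) and NCAM1 (0.105) did not pass without HCT116. STMN2 was not tested without HCT116.

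Clustered protocadherins, neuronal adhesion proteins read from alternative promoters in 3 gene clusters, were higher with TSA in 9 of 45 tested (20%) and higher with S2101 in none. The share is above the 13.5% of all genes tested, but at levels where reads were few. In the fifth of all genes with the lowest level, 611 of 3386 were called higher with TSA and 59 higher with S2101. The share was not compared with genes of matched level. Without the A549 S2101 library 3 of 45 passed, against 5.2% of all genes tested in that fit. PCDHB7 read at 0.289, 0.131 and 0 CPM with S2101 and 2.72, 1.17 and 0.962 CPM with TSA (log2 difference 3.79 ± 0.93, SE, adjusted p = 0.0186). PCDHA1 read at 0, 1.05 and 0.0549 CPM with S2101 and 1.19, 6.35 and 0.421 CPM with TSA (log2 difference 3.42 ± 0.79, SE, 2.67 without MHCC97H and 4.12 without the A549 S2101 library, adjusted p = 0.0153). Only A549 had either gene above 1 CPM with S2101, and that gene was PCDHA1. PCDHB18 (log2 difference 2.63 ± 0.68, SE, adjusted p = 0.0224) and PCDHA6 (log2 difference 2.53 ± 0.79, SE, 1.93 without the A549 S2101 library, adjusted p = 0.0427) were called at lower levels. Exons shared within the clusters make the split between members uncertain. PCDHA1 (adjusted p = 0.0686), PCDHB18 (0.101) and PCDHA6 (0.338) did not pass without the A549 S2101 library. PCDHA6 (adjusted p = 0.0758) did not pass without HCT116. PCDHB18 was not tested without HCT116.

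Metallothioneins, small proteins that bind zinc and copper, had the highest median of any list, 3.16 over 8 tested genes. Of these, 4 were called higher with TSA (50.0%, against 13.5% of all genes tested) and none higher with S2101. Low members could pass the filter on low counts through their TSA libraries, and the share was not compared with genes of matched level. Of 7 tested without the A549 S2101 library 2 passed. MT1X read at 0.578, 36.5 and 15.3 CPM with S2101 and 117, 251 and 155 CPM with TSA (log2 difference 4.68 ± 1.03, SE, 3 without MHCC97H and 6.09 without A549, adjusted p = 0.0127). MT2A, the most abundant member, read at 8.39, 147 and 388 CPM with S2101 and 273, 464 and 1333 CPM with TSA (log2 difference 3.19 ± 0.76, SE, 1.73 without MHCC97H and 3.92 without A549, adjusted p = 0.0172). It was higher with TSA in each line, while the HCT116 S2101 library was above the MHCC97H TSA library. MT1G read at 0.231, 0.196 and 0.439 CPM with S2101 and 19.7, 4.32 and 2.77 CPM with TSA (log2 difference 4.79 ± 1.08, SE, 3.48 without MHCC97H and 5.65 without HCT116, adjusted p = 0.0139). MT3 was seen with TSA in MHCC97H and A549 at 0.398 and 5.05 CPM and in no HCT116 library (log2 difference 3.12 ± 0.75, SE, adjusted p = 0.0364). These genes are close copies, so reads may be split between them. MT1G (adjusted p = 0.0604) did not pass without the A549 S2101 library. MT3 was not tested without the A549 S2101 library.

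Genes of cell division were called at a few members. Of 34 DNA replication genes 7 were higher with S2101 (20.6%, against 13.1% of all genes tested) and 1 higher with TSA, with a median log2 difference of -0.57. Both compounds sat below untreated, with list medians of -1.19 for TSA and -0.63 for S2101. TYMS, the enzyme that makes thymidylate, read at 108, 144 and 225 CPM untreated, 56.97, 77.4 and 136 with S2101 and 5.17, 12.4 and 33.2 with TSA (log2 difference -2.58 ± 0.4, SE, adjusted p = 0.00443). The order untreated, S2101, TSA held in every line. MCM5, a subunit of the replicative helicase, read at 76.2, 98.2 and 138 CPM with S2101 and 23.1, 28.97 and 71.8 CPM with TSA (log2 difference -1.45 ± 0.38, SE, adjusted p = 0.0228). MCM3, another, read at 109, 129 and 222 CPM with S2101 and 48.9, 39.9 and 114 CPM with TSA (log2 difference -1.28 ± 0.28, SE, adjusted p = 0.0126). TK1, thymidine kinase, was the exception and was higher with TSA (97.5, 126 and 173 CPM with S2101 and 182, 388 and 489 CPM with TSA, log2 difference 1.39 ± 0.35, SE, adjusted p = 0.02). Of 28 mitosis and spindle genes 5 were higher with S2101 (17.9%, against 13.1% of all genes tested) and none higher with TSA. CDK1, the kinase that drives mitosis, read at 60.03, 77.03 and 106 CPM with S2101 and 15.8, 39.6 and 48.5 CPM with TSA (log2 difference -1.27 ± 0.36, SE, adjusted p = 0.0319). CENPA, the centromeric histone, read at 24.6, 24.7 and 18.6 CPM with S2101 and 3.98, 14.6 and 8.36 CPM with TSA (log2 difference -1.39 ± 0.4, SE, adjusted p = 0.0335). MAD2L1 (log2 difference -1.36 ± 0.35, SE, adjusted p = 0.0216) and AURKA (log2 difference -1.27 ± 0.39, SE, adjusted p = 0.0416) were called alongside them. With the A549 S2101 library set aside 1 of 34 and 0 of 28 passed as higher with S2101. MCM5 (adjusted p = 0.1), MCM3 (0.0586), TK1 (0.0625), CDK1 (0.096), CENPA (0.0671), MAD2L1 (0.0735) and AURKA (0.0981) did not pass without the A549 S2101 library. TK1 (adjusted p = 0.0773), CDK1 (0.0892), CENPA (0.0839) and MAD2L1 (0.0754) did not pass without HCT116.

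Promoters of the mitosis list held TTTGAA in 69.6% of 23 and CCAAT in 78.3%, against 15.4 and 35.7% of all promoters and 10.3 and 36.3% of those of genes tested. For the 30 promoters of the replication list the shares were 3.33 and 60.0%.

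Regulators of the cell cycle moved both ways. Of 15 CDK inhibitors and G1 cyclins, 3 were higher with TSA (20%, against 13.5% of all genes tested). Only 1 was higher with S2101 (6.67%, against 13.1%). The counts were 1 and 1 without the A549 S2101 library. CCND2, cyclin D2, was absent from MHCC97H and HCT116 with S2101 and read at 2.85, 11.6 and 0.301 CPM with TSA (log2 difference 3.83 ± 0.98, SE, 3.11 without MHCC97H and 7.66 without the A549 S2101 library, adjusted p = 0.029). CCND3, cyclin D3, read at 77.5, 81.03 and 21.04 CPM with S2101 and 134, 120.1 and 53.8 CPM with TSA (log2 difference 0.93 ± 0.3, SE, adjusted p = 0.0459). CDK4, their kinase, was lower with TSA (227, 168 and 122 CPM with S2101 and 147, 91.7 and 58.3 CPM with TSA, log2 difference -0.85 ± 0.16, SE, adjusted p = 0.00743). Of 20 p53 target genes 7 were higher with TSA (35.0%, against 13.5% of all genes tested) and none higher with S2101. Only 2 of the 20 passed without the A549 S2101 library, against 5.2% of all genes tested in that fit. Besides CDKN1A, these included FDXR, a mitochondrial reductase, at 6.07, 33.1 and 55.5 CPM with S2101 and 22.8, 107 and 104 CPM with TSA (log2 difference 1.54 ± 0.25, SE, adjusted p = 0.00497). TP53INP1, a stress-induced p53 partner, read at 46.2, 19.6 and 28.6 CPM with S2101 and 95.7, 73.7 and 76.7 CPM with TSA (log2 difference 1.46 ± 0.31, SE, adjusted p = 0.0118). BTG2, an antiproliferative gene, read at 6.82, 5.301 and 19.01 CPM with S2101 and 12.3, 15.1 and 38.4 CPM with TSA (log2 difference 1.11 ± 0.28, SE, adjusted p = 0.0216). CCND2 (adjusted p = 0.053), CCND3 (0.0956), TP53INP1 (0.0607) and BTG2 (0.0991) did not pass without the A549 S2101 library. CCND3 (adjusted p = 0.116) and BTG2 (0.0674) did not pass without HCT116.

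Immediate early genes, which respond to signalling within minutes, were higher with TSA in 6 of 18 (33.3%, against 13.5% of all genes tested) and higher with S2101 in 1. Those counts became 3 and 0 without the A549 S2101 library. NR4A1, an orphan nuclear receptor, read at 16.7, 30.4 and 15.6 CPM with S2101 and 143, 158 and 54.4 CPM with TSA (log2 difference 2.6 ± 0.55, SE, adjusted p = 0.0112). NR4A3, its relative, read at 0.925, 3.67 and 0.439 CPM with S2101 and 14.1, 20.7 and 9.38 CPM with TSA (log2 difference 3.62 ± 0.68, SE, adjusted p = 0.00745). For both, every TSA library was above every S2101 library. ATF3, a stress-induced transcription factor, was higher with TSA in each line (49.2, 8.31 and 23.1 CPM with S2101 and 144, 36.9 and 141 CPM with TSA, log2 difference 1.97 ± 0.54, SE, adjusted p = 0.0272). FOSL1, an AP-1 subunit, was the exception (151, 50.1 and 153 CPM with S2101 and 5.76, 6.84 and 53.4 CPM with TSA, log2 difference -2.67 ± 0.74, SE, -3.75 without HCT116 and -1.94 without MHCC97H, adjusted p = 0.0282). ATF3 (adjusted p = 0.109) and FOSL1 (0.0603) did not pass without the A549 S2101 library. ATF3 (adjusted p = 0.0671) did not pass without HCT116.

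**Figure D4:**
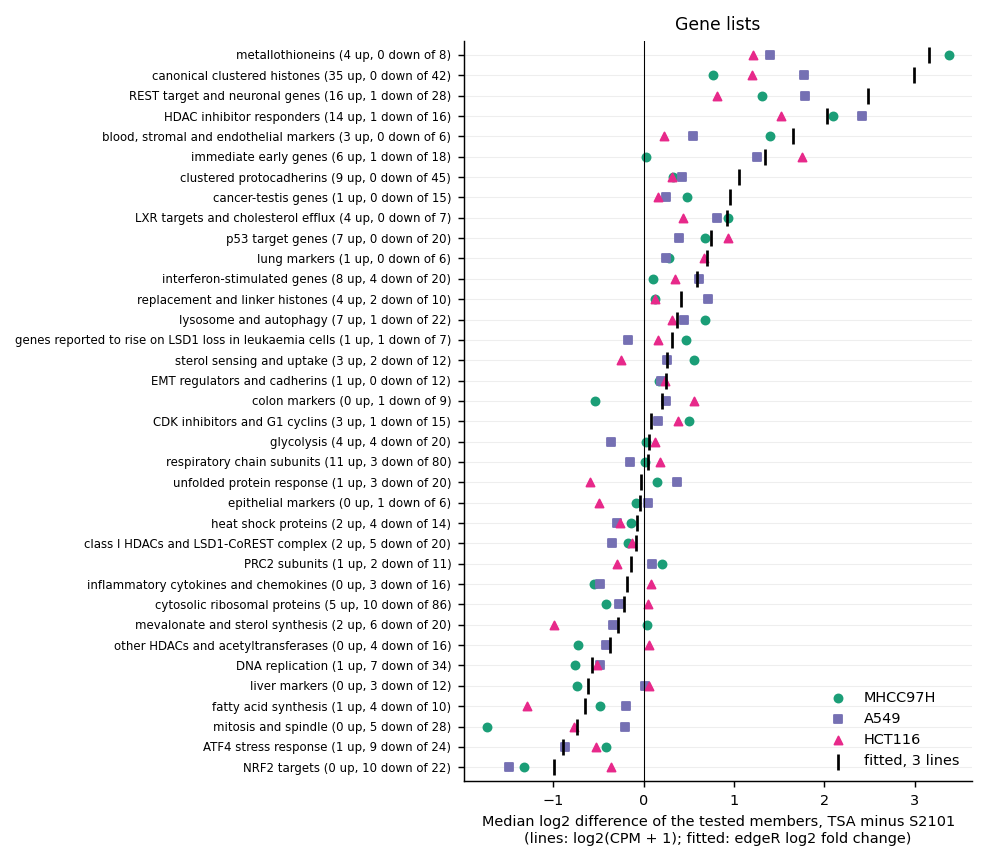
Median log2 difference between TSA and S2101 (horizontal axis) over the tested members of each of 36 gene lists, with 1 coloured symbol per line and a black bar for the fit over all libraries. Labels count the members called higher with TSA (up) and higher with S2101 (down). Metallothioneins, canonical histones, neuronal genes and HDAC inhibitor responders lie to the right in all 3 lines, and NRF2 targets and the ATF4 stress response lie to the left in all 3.

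On the other side, the genes highest with S2101 relative to TSA were mostly genes that untreated cells already expressed and that TSA lowered. The 12 leading genes were IGFBP1, VCAM1, GLDN, ABCC3, SLC22A3, NUPR1, EPS8L3, DHRS3, THSD7A, HTR1D, SLC6A9 and CLMP, with log2 differences from -6.77 to -3.28. IGFBP1 (chr7:45888488-45893660), a secreted binding protein for insulin-like growth factors made by the liver, read at 63.6, 4.21 and 0 CPM untreated, 787, 13.4 and 0.0549 with S2101 and 4.37, 0.308 and 0 with TSA (log2 difference -6.77 ± 0.66, SE, -7.36 without the A549 S2101 library and -5.32 without MHCC97H, adjusted p = 0.00169). S2101 was above and TSA below untreated in MHCC97H and A549, and HCT116 hardly expressed the gene. ABCC3 (chr17:50634881-50692253), a transporter that exports conjugated bile acids and drugs, read at 194, 334 and 17.99 CPM untreated, 305, 596 and 122 with S2101 and 11.1, 29.4 and 4.03 with TSA (log2 difference -4.71 ± 0.43, SE, adjusted p = 0.00169). Here all 3 lines had S2101 above and TSA below untreated, and the S2101 libraries did not overlap with the TSA libraries. DHRS3, a retinal reductase, read at 69.04, 44.7 and 48.3 CPM untreated, 149, 84.9 and 20.1 with S2101 and 3.31, 3.95 and 7.34 with TSA (log2 difference -3.8 ± 0.66, SE, -4.91 without HCT116 and -2.94 without MHCC97H, adjusted p = 0.00597). HTR1D, a serotonin receptor, read at 18.4, 30.1 and 8.32 CPM untreated, 24.1, 42.6 and 12.2 with S2101 and 0.928, 1.91 and 2.47 with TSA (log2 difference -3.62 ± 0.52, SE, -4.52 without HCT116, adjusted p = 0.00379). SLC6A9, a glycine transporter, was at 7.23, 18 and 7.801 CPM with S2101 and 0.53, 0.986 and 1.504 CPM with TSA (log2 difference -3.52 ± 0.46, SE, adjusted p = 0.00309). For these 3 genes each S2101 library was above all TSA libraries.

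Other leading genes rested on 1 or 2 lines. VCAM1, an adhesion molecule for leukocytes, was present mainly in MHCC97H (24.2, 0.0654 and 0.1099 CPM with S2101 and 0.199, 0 and 0.0601 CPM with TSA, log2 difference -6 ± 1.21, SE, -6.77 without HCT116, adjusted p = 0.0094). GLDN, gliomedin, was at 43.2, 0.131 and 6.92 CPM with S2101 and 0.464, 0 and 0.601 CPM with TSA (log2 difference -4.96 ± 0.68, SE, -6.52 without HCT116 and -3.62 without MHCC97H, adjusted p = 0.00344). SLC22A3, an organic cation transporter, was high in MHCC97H and A549 alone (65.7, 92.2 and 0.275 CPM with S2101 and 3.31, 2.77 and 0.1804 CPM with TSA, log2 difference -4.52 ± 0.69, SE, -3.88 without A549, adjusted p = 0.0043). EPS8L3 read at 62.2, 1.702 and 0.1099 CPM with S2101 and 4.31, 0.0616 and 0 CPM with TSA (log2 difference -3.98 ± 0.49, SE, adjusted p = 0.00273). THSD7A read at 383, 36.8 and 0.934 CPM with S2101 and 7.55, 2.96 and 0.902 CPM with TSA (log2 difference -3.69 ± 1.14, SE, -4.63 without HCT116 and -1.9 without MHCC97H, adjusted p = 0.0409), and its HCT116 libraries did not separate. CLMP, a cell adhesion protein, read at 53.7, 21.9 and 2.36 CPM with S2101 and 2.32, 0.7397 and 1.32 CPM with TSA (log2 difference -3.28 ± 0.84, SE, -4.68 without HCT116 and -2.37 without A549, adjusted p = 0.0217). THSD7A (adjusted p = 0.115) and CLMP (0.0763) did not pass without the A549 S2101 library.

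NRF2 targets, the enzymes and transporters that handle oxidants and conjugated drugs, were higher with S2101 in 10 of 22 (45.5%, against 13.1% of all genes tested) and higher with TSA in none, with a median log2 difference of -0.99. Against untreated the list's median was -0.85 with TSA and 0.27 with S2101. SLC7A11 (chr4:138164097-138242349), the cystine importer that feeds glutathione synthesis, read at 899, 594 and 261 CPM untreated, 793, 579.8 and 207 with S2101 and 93.7, 46.4 and 41.98 with TSA (log2 difference -2.99 ± 0.27, SE, adjusted p = 0.00169). TSA was the lowest in every line, and S2101 lay below untreated by a smaller step. GPX2, a glutathione peroxidase, read at 282, 70.9 and 0.549 CPM with S2101 and 50.9, 10.97 and 0.241 CPM with TSA (log2 difference -2.45 ± 0.24, SE, adjusted p = 0.00169), with little in HCT116 in either library. AKR1C1, an aldo-keto reductase whose paralogs may share reads, was at 1759.7, 1187 and 1.703 CPM with S2101 and 353, 192 and 1.38 CPM with TSA (log2 difference -1.95 ± 0.46, SE, adjusted p = 0.0161). In the fit lacking the A549 S2101 library 6 of 22 passed. AKR1C1 (adjusted p = 0.065) did not pass without the A549 S2101 library.

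The ATF4 stress response, the programme cells use when amino acids run short, was higher with S2101 in 9 of 24 (37.5%, against 13.1% of all genes tested) and higher with TSA in 1, the ATF3 already described. NUPR1, a small stress-induced chromatin protein, read at 99.2, 19.7 and 0.385 CPM with S2101 and 5.102, 0.431 and 0 CPM with TSA (log2 difference -4.46 ± 0.58, SE, -5.21 without MHCC97H, adjusted p = 0.00309). TRIB3, a pseudokinase, read at 231, 201 and 56.8 CPM with S2101 and 36.97, 17.4 and 19.4 CPM with TSA (log2 difference -2.61 ± 0.45, SE, adjusted p = 0.00579). TRIB3 was higher with S2101 in each line without overlap, and NUPR1 was nearly absent from HCT116. Fitted without the S2101 library of A549 4 of 24 passed as higher with S2101. Of 20 genes of the unfolded protein response, 3 were higher with S2101 (15.0%, against 13.1% of all genes tested) and 1 with TSA (5.0%, against 13.5%). XBP1, a transcription factor of that response, read at 103, 47.5 and 45.7 CPM with S2101 and 17.2, 11.8 and 26.9 CPM with TSA (log2 difference -1.82 ± 0.32, SE, adjusted p = 0.00597). The folding chaperones CANX (log2 difference -0.72 ± 0.14, SE, adjusted p = 0.00754) and CALR (log2 difference 0.69 ± 0.22, SE, adjusted p = 0.0448) went in opposite directions, and PDIA3 was lower with TSA (log2 difference -0.6 ± 0.13, SE, adjusted p = 0.0113). CALR (adjusted p = 0.172) did not pass without the A549 S2101 library.

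Several lipid synthesis enzymes lay above untreated with S2101 and below it with TSA, though their lists as a whole did not. Cholesterol and fatty acid enzymes are switched on together by the SREBP factors when sterols fall. Of 20 mevalonate and sterol enzymes 6 were higher with S2101 (30.0%, against 13.1% of all genes tested) and 2 higher with TSA (10%, against 13.5%). The list's median log2 difference from untreated was 0.97 with S2101 and 0.62 with TSA, so the typical member was above untreated with both compounds. Of 10 fatty acid enzymes 4 (40.0%) and 1 were called, with medians of 0.71 and -0.08 from untreated. Of 12 genes of sterol sensing and uptake 2 were higher with S2101 (16.7%, against 13.1%) and 3 with TSA (25%, against 13.5%). Their medians from untreated were 0.65 with S2101 and 0.78 with TSA. Without the A549 S2101 library 4, 2 and 1 genes of the 3 lists passed as higher with S2101 and 1, 0 and 0 as higher with TSA. FDPS, which makes farnesyl diphosphate, read at 275, 121 and 118 CPM untreated, 439, 295 and 174 with S2101 and 148, 95.2 and 82.8 with TSA (log2 difference -1.42 ± 0.19, SE, adjusted p = 0.00344). CYP51A1, a sterol demethylase, read at 228, 171 and 113 CPM untreated, 323, 355 and 189 with S2101 and 104, 118 and 78.3 with TSA (log2 difference -1.5 ± 0.18, SE, adjusted p = 0.00256). ACAT2, the first enzyme of the mevalonate route, read at 56.3, 47.7 and 34.5 CPM untreated, 76.5, 115 and 56.3 with S2101 and 21.6, 30.8 and 20.6 with TSA (log2 difference -1.72 ± 0.19, SE, adjusted p = 0.00238). In all 3 genes and all 3 lines the order was S2101, untreated, TSA, from high to low, and the compounds did not overlap. TM7SF2, a sterol reductase, was above untreated with both compounds and higher with TSA (2.11, 4.48 and 14.1 CPM untreated, 10.1, 28.4 and 29.5 with S2101 and 40.02, 101 and 35.7 with TSA, log2 difference 1.59 ± 0.52, SE, adjusted p = 0.0486). TM7SF2 (adjusted p = 0.117) did not pass without the A549 S2101 library.

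The fatty acid genes behaved alike in part. ELOVL6, a fatty acid elongase, read at 76.8, 63.9 and 55.5 CPM untreated, 121, 118 and 94.6 with S2101 and 15.4, 12.8 and 28.99 with TSA (log2 difference -2.58 ± 0.32, SE, adjusted p = 0.00284). FADS2, a desaturase, read at 233, 393 and 17.5 CPM untreated, 448, 849 and 23.2 with S2101 and 83.7, 118 and 5.77 with TSA (log2 difference -2.43 ± 0.26, SE, adjusted p = 0.00184). Both were above untreated with S2101 and below it with TSA in every line. SCD, the stearoyl desaturase, was above untreated with S2101 in each line, and with TSA it lay above it in MHCC97H, near it in A549 and below it in HCT116 (986, 1153 and 1458 CPM untreated, 1853, 3617 and 2352 with S2101 and 1176, 1149 and 482 with TSA, log2 difference -1.4 ± 0.45, SE, adjusted p = 0.0467). ACSL3, which activates fatty acids, was higher with TSA in MHCC97H and A549 (379, 388 and 170.2 CPM with S2101 and 915, 978 and 201 CPM with TSA, log2 difference 1.03 ± 0.3, SE, adjusted p = 0.0362). The regulators split. SREBF1 read at 121, 159 and 269 CPM untreated, 178, 395 and 153 with S2101 and 1361, 2298 and 291 with TSA (log2 difference 2.45 ± 0.63, SE, adjusted p = 0.0229), highest with TSA in all 3 lines. SREBF2 read at 85.5, 103 and 236 CPM untreated, 138, 177 and 341 with S2101 and 97.1, 103 and 164 with TSA (log2 difference -0.77 ± 0.17, SE, adjusted p = 0.0124), highest with S2101 in all 3. NPC2, a lysosomal cholesterol carrier, was higher with TSA (log2 difference 0.71 ± 0.18, SE, adjusted p = 0.0211). Of 7 LXR target and efflux genes 4 were higher with TSA (57.1%, against 13.5% of all genes tested), and none without the A549 S2101 library. The 4 were ABCG1 (log2 difference 2.24 ± 0.73, SE, adjusted p = 0.0493), MYLIP (log2 difference 1.35 ± 0.35, SE, adjusted p = 0.0225), LPCAT3 (log2 difference 1.28 ± 0.34, SE, adjusted p = 0.0247) and APOE (log2 difference 0.92 ± 0.26, SE, adjusted p = 0.0319). SCD (adjusted p = 0.149), ACSL3 (0.115), SREBF1 (0.0631), SREBF2 (0.0543), NPC2 (0.0578), ABCG1 (0.176), MYLIP (0.106), LPCAT3 (0.0943) and APOE (0.0696) did not pass without the A549 S2101 library. SCD (adjusted p = 0.0843), ABCG1 (0.0557) and APOE (0.0519) did not pass without HCT116.

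**Figure D5:**
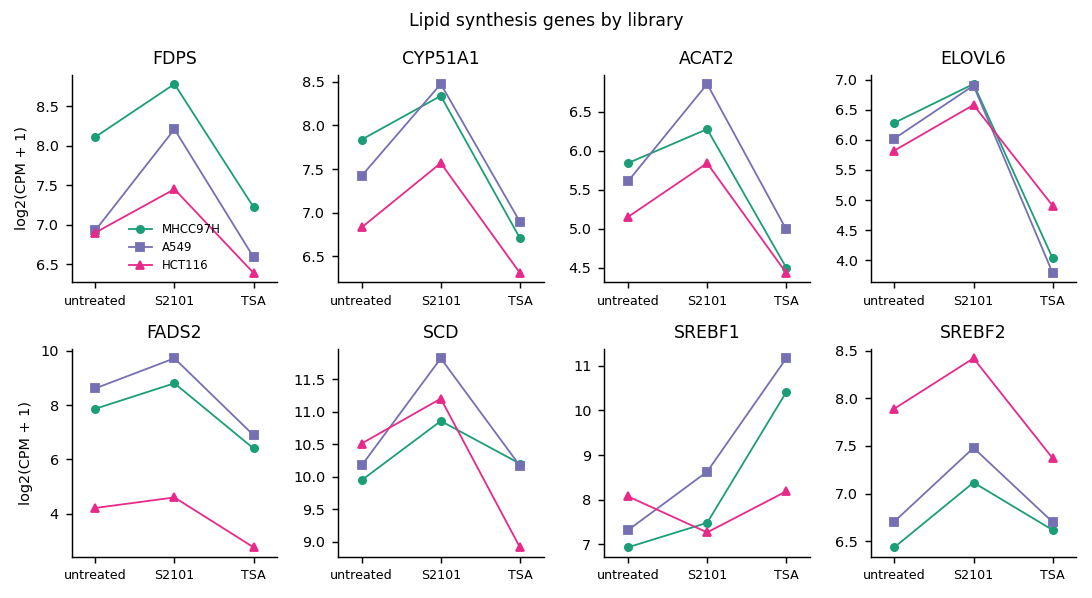
Level of 8 lipid genes, log2(CPM + 1) (vertical axis, scaled to each gene), in the untreated, S2101 and TSA library of each line, with 1 line and symbol per cell line. FDPS, CYP51A1, ACAT2, ELOVL6 and FADS2 peak with S2101 and are lowest with TSA in all 3 lines, whereas SREBF1 is highest with TSA.

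Promoter windows of 2 of these enzymes are shown because both genes had the same order of libraries, yet the windows differ in the searched elements. They are printed as above, with FDPS at chr1:155308616-155308915 on the plus strand and CYP51A1 at chr7:92134428-92134727 on the minus strand. The coordinates used here place the CYP51A1 gene at chr7:92112153-92134803. Its window therefore lies inside the gene and does not cover the bases before that start.
FDPS promoter: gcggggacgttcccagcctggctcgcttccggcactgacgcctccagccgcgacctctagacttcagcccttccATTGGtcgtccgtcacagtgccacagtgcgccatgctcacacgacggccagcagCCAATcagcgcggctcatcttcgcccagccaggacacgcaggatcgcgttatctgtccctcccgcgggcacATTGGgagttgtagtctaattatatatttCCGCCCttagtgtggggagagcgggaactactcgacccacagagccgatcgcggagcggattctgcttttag
CYP51A1 promoter: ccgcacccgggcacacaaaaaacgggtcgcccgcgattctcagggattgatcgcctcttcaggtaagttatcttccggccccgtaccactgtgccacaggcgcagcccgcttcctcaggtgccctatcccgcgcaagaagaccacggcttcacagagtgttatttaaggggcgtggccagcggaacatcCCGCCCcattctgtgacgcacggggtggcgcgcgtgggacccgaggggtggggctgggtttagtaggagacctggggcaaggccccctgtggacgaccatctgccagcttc
Capitals mark CCAAT and GGGCGG on either strand. The FDPS window held 3 CCAAT matches and 1 GGGCGG match. The CYP51A1 window held 1 GGGCGG match and no CCAAT, which leaves the bases before the gene's start given above unsearched. Of 15 promoters of the sterol synthesis list 80.0% held CCAAT and 93.3% GGGCGG, against 35.7 and 44.6% of all promoters and 36.3 and 66.3% of the 12882 promoters of genes tested. The sterol regulatory element, searched only as 1 exact sequence, was in none of these 15 and in 13 of all 27305. With so few matches among all promoters, that search cannot tell whether the 15 hold such elements.

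Genes of inflammation and interferon differed at single members. Of 16 inflammatory genes 3 were higher with S2101 (18.8%, against 13.1% of all genes tested) and none higher with TSA, with a median log2 difference of -0.18. CXCL5, a neutrophil chemokine, read at 47.9, 302 and 0.0549 CPM with S2101 and 2.39, 9.31 and 0.0601 CPM with TSA (log2 difference -4.63 ± 0.41, SE, adjusted p = 0.00169). IL1B, a proinflammatory cytokine, exceeded 1 CPM in MHCC97H alone (18.04, 0.262 and 0 CPM with S2101 and 0.464, 0 and 0 CPM with TSA, log2 difference -4.84 ± 0.94, SE, adjusted p = 0.00837). NFKBIA, the inhibitor of NF-kB, was lower with TSA in each line (59.2, 67.8 and 24.3 CPM with S2101 and 9.87, 30.5 and 10.5 CPM with TSA, log2 difference -1.71 ± 0.34, SE, adjusted p = 0.00919). Of 20 interferon-stimulated genes 8 were higher with TSA (40%, against 13.5% of all genes tested). Another 4 were higher with S2101 (20%, against 13.1%), so the list had no single direction. Those 4 are counted here and not named. IFI6 read at 1.91, 6.74 and 5.16 CPM with S2101 and 50.1, 45.7 and 15.04 CPM with TSA (log2 difference 3.24 ± 0.63, SE, 2.29 without MHCC97H, adjusted p = 0.00842). IRF7, a factor that induces interferon, read at 9.89, 7.59 and 5.38 CPM with S2101 and 72.6, 54.2 and 25.1 CPM with TSA (log2 difference 2.72 ± 0.44, SE, adjusted p = 0.00503). IFIT1 (log2 difference 2.25 ± 0.42, SE, adjusted p = 0.0071) and ISG15 (log2 difference 2.05 ± 0.58, SE, 1.38 without A549, adjusted p = 0.0313) were also higher with TSA, and all 4 of these genes had TSA libraries above every S2101 library. Once the A549 S2101 library was removed 4 of 20 passed as higher with TSA and 0 as higher with S2101. Of 7 tested genes reported to rise on LSD1 loss in leukaemia cells, CSF1R was higher with TSA (0.0578, 0.7199 and 0.275 CPM with S2101 and 13.2, 6.23 and 1.38 CPM with TSA, log2 difference 4.18 ± 0.96, SE, 2.79 without MHCC97H and 5.07 without A549, adjusted p = 0.0147) and LY96 higher with S2101 (log2 difference -1.89 ± 0.54, SE, adjusted p = 0.0317). ISG15 (adjusted p = 0.107) and LY96 (0.0869) did not pass without the A549 S2101 library.

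Heat shock genes were called in both directions. Of 14, 4 were higher with S2101 (28.6%, against 13.1% of all genes tested) and 2 with TSA (14.3%, against 13.5%), with a median log2 difference of -0.07. The counts were 3 and 0 without the A549 S2101 library. HSPH1, a large chaperone of the HSP110 family (chr13:31134973-31162388), read at 148, 183 and 168 CPM with S2101 and 37.1, 61.7 and 37.8 CPM with TSA (log2 difference -1.9 ± 0.15, SE, adjusted p = 0.00169) and was among the 17 genes called without A549. The mitochondrial pair HSPD1 (1043, 939 and 1195 CPM with S2101 and 597, 514 and 475 CPM with TSA, log2 difference -1 ± 0.14, SE, adjusted p = 0.00379) and HSPE1 (126, 104 and 85.6 CPM with S2101 and 44.3, 38.9 and 27.1 CPM with TSA, log2 difference -1.53 ± 0.15, SE, adjusted p = 0.00169) had each TSA library below each S2101 library. DNAJB1, a cytosolic cochaperone, was higher with TSA in MHCC97H and A549 (169, 131 and 99.2 CPM with S2101 and 737, 434 and 135 CPM with TSA, log2 difference 1.6 ± 0.43, SE, adjusted p = 0.026). DNAJB1 (adjusted p = 0.0759) did not pass without the A549 S2101 library.

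Lysosomal genes were higher with TSA in 7 of 22 (31.8%, against 13.5% of all genes tested) and higher with S2101 in 1. NEU1, the lysosomal sialidase (chr6:31857659-31862821), read at 138, 22.4 and 17.9 CPM untreated, 230.4, 134 and 18.9 with S2101 and 1766, 756 and 191 with TSA (log2 difference 2.86 ± 0.4, SE, adjusted p = 0.00355). S2101 was also above untreated in MHCC97H and A549. ATP6V0D1, a subunit of the proton pump that acidifies lysosomes, read at 65.2, 69.6 and 23.7 CPM with S2101 and 202, 189 and 96.2 CPM with TSA (log2 difference 1.68 ± 0.17, SE, adjusted p = 0.00176). ATP6V1A (log2 difference 1.25 ± 0.2, SE, adjusted p = 0.00497) and the calcium channel MCOLN1 (log2 difference 1.69 ± 0.28, SE, adjusted p = 0.00533) differed in the same direction. After leaving out the A549 S2101 library 4 of 22 passed as higher with TSA.

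Energy metabolism and ribosomal genes were mostly level. Of 80 respiratory chain genes 11 were higher with TSA (13.8%, against 13.5% of all genes tested), 3 higher with S2101 and 66 were not called. The counts were 6 and 0 without the A549 S2101 library. COX6A1 read at 166, 159 and 116 CPM with S2101 and 414, 309 and 361 CPM with TSA (log2 difference 1.3 ± 0.17, SE, adjusted p = 0.00317). NDUFA2 (log2 difference 1.12 ± 0.17, SE, adjusted p = 0.00397), NDUFB3 (log2 difference 1.08 ± 0.17, SE, adjusted p = 0.0044) and COX6B2 (log2 difference 1.91 ± 0.52, SE, adjusted p = 0.0273) were the other large differences. Of 20 glycolysis genes 4 were higher with each compound (20%, against 13.5% for TSA and 13.1% for S2101 of all genes tested). The counts became 3 with TSA and 1 with S2101 without the A549 S2101 library. TPI1 (log2 difference 1.07 ± 0.18, SE, adjusted p = 0.00568) and ALDOC (log2 difference 2.5 ± 0.69, SE, 1.82 without MHCC97H, adjusted p = 0.0285) were higher with TSA, and ENO1 (log2 difference -0.88 ± 0.25, SE, adjusted p = 0.0331) and PFKP (log2 difference -1.04 ± 0.19, SE, adjusted p = 0.00659) higher with S2101. Of 86 cytosolic ribosomal protein genes 5 were higher with TSA (5.81%, against 13.5% of all genes tested) and 10 with S2101 (11.6%, against 13.1%), with 71 not called. Leaving out the A549 S2101 library left 2 and 1. Apart from RPL3L, the largest differences were in RPL22L1 (log2 difference -1.04 ± 0.24, SE, adjusted p = 0.0142), RPL26L1 (log2 difference 0.94 ± 0.18, SE, adjusted p = 0.00865) and RPL21 (log2 difference -0.84 ± 0.14, SE, adjusted p = 0.00541), and reads of such genes may be shared with pseudogenes. COX6B2 (adjusted p = 0.1), ALDOC (0.0695), ENO1 (0.129) and RPL22L1 (0.066) did not pass without the A549 S2101 library.

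Markers of tissue identity differed at single genes. APOH (22.4, 2.16 and 0 CPM with S2101 and 6.29, 0.555 and 0 CPM with TSA, log2 difference -1.85 ± 0.36, SE, adjusted p = 0.0156) and FGA (6.01, 4.78 and 0 CPM with S2101 and 1.99, 1.23 and 0 CPM with TSA, log2 difference -1.74 ± 0.38, SE, adjusted p = 0.0217), both secreted by liver cells, were higher with S2101 in MHCC97H and A549 and had no read in HCT116. LGALS4, a galectin of gut epithelium, was highest in MHCC97H, not in the colorectal line (402, 2.09 and 0.2197 CPM with S2101 and 37.8, 0.493 and 0.241 CPM with TSA, log2 difference -2.75 ± 0.55, SE, -1.2 without MHCC97H, adjusted p = 0.00936). LAMP3, a marker of alveolar cells, was higher with TSA in each line (0.694, 1.24 and 5.66 CPM with S2101 and 15.7, 10.5 and 13.8 CPM with TSA, log2 difference 3.25 ± 0.71, SE, 2.46 without MHCC97H, adjusted p = 0.0123). KRT18, an epithelial keratin, was lower with TSA in each line (926, 1581 and 801 CPM with S2101 and 659, 802 and 377 CPM with TSA, log2 difference -0.86 ± 0.23, SE, adjusted p = 0.0271). Outside epithelium, COL1A1, the main fibroblast collagen, read at 0.231, 11.5 and 25.7 CPM with S2101 and 36.6, 89.5 and 62.5 CPM with TSA (log2 difference 3.86 ± 1, SE, 2.32 without MHCC97H and 4.76 without HCT116, adjusted p = 0.023). VWF, of endothelial cells, was called at levels of at most 5.10 CPM (log2 difference 2.49 ± 0.7, SE, adjusted p = 0.031). Of 6 tested blood, stromal and endothelial markers 3 were higher with TSA (50.0%, against 13.5% of all genes tested) and none with S2101. Without the A549 S2101 library 1 passed. PECAM1, also endothelial, read at 72.1, 2.82 and 3.31 CPM of the library total with S2101 and 21.9, 2.03 and 3.49 with TSA. It was thus lower with TSA in MHCC97H and A549. SNAI2, a regulator of epithelial-mesenchymal transition, was higher with TSA (5.61, 0.851 and 0.385 CPM with S2101 and 13.8, 1.85 and 5.83 CPM with TSA, log2 difference 2.21 ± 0.65, SE, 1.26 without HCT116, adjusted p = 0.0355). GAGE1, a cancer-testis gene, was higher with TSA in MHCC97H and close to 0 elsewhere (3.53, 0 and 0 CPM with S2101 and 19.6, 0.185 and 0.1203 CPM with TSA, log2 difference 2.73 ± 0.6, SE, adjusted p = 0.013). APOH (adjusted p = 0.0655), FGA (0.0839), KRT18 (0.104), COL1A1 (0.0651), VWF (0.0723) and SNAI2 (0.077) did not pass without the A549 S2101 library. VWF (adjusted p = 0.103) did not pass without HCT116.

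The rule also named the genes with the largest differences within a line at 50 CPM or more, and the called examples below had 1 direction in at least 2 lines. FOXQ1, a forkhead factor named for MHCC97H, read at 148, 9.82 and 0.1099 CPM with S2101 and 2.45, 0.925 and 0.1203 CPM with TSA (log2 difference -4.53 ± 0.79, SE, -5.51 without A549 and -2.69 without MHCC97H, adjusted p = 0.00598). It was lower with TSA in MHCC97H and A549 and near 0 in HCT116. KRT7, a keratin of simple epithelia named for HCT116, read at 9.6, 2312 and 75.1 CPM with S2101 and 1.59, 218 and 7.16 CPM with TSA (log2 difference -3.2 ± 0.55, SE, adjusted p = 0.00572). DNAH3, a dynein heavy chain named for A549, read at 0.116, 19.5 and 0.0549 CPM with S2101 and 14.5, 241 and 27.5 CPM with TSA (log2 difference 4.85 ± 0.89, SE, 7.97 without the A549 S2101 library, adjusted p = 0.00687). KRT7 was lower and DNAH3 higher with TSA in all 3 lines. ARRDC4, an arrestin related to TXNIP and named for HCT116, read at 16.3, 7.199 and 3.57 CPM with S2101 and 59.3, 60.8 and 469.6 CPM with TSA (log2 difference 3.72 ± 0.86, SE, 2.68 without HCT116 and 4.5 without MHCC97H, adjusted p = 0.0154). ANO1, a calcium-activated chloride channel also named for HCT116, read at 6.42, 1.24 and 94.5 CPM with S2101 and 2.19, 0.3699 and 11.3 CPM with TSA (log2 difference -2.19 ± 0.44, SE, -1.58 without HCT116, adjusted p = 0.00975). The step in HCT116 was the widest for both, with the same direction in MHCC97H and A549. NRP1, a receptor for semaphorins and VEGF, went from 345 to 16.6 CPM in MHCC97H and from 515 to 23.9 CPM in A549, against 8.13 and 10.1 CPM in HCT116, and the fit over all lines did not call it (log2 difference -2.44 ± 1.13, SE, -4.36 without HCT116 and -1.34 without A549, adjusted p = 0.135).

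More genes were seen with TSA than with S2101 in every line. At 1 CPM of the library total, 14646, 15157 and 14939 genes were detected with TSA and 13287, 14133 and 14009 with S2101, a mean excess of 1104 ± 225 (SD, n = 3). An exact two-sided sign-flip permutation test gave p = 0.25, the smallest that 3 pairs allow. Genes under 0.1 CPM with S2101 and at 1 CPM or more with TSA came to 393, 106 and 178 in the 3 lines. The reverse held for 15, 10 and 2 genes. Of the TSA-only genes, 306, 90 and 97 were also under 0.1 CPM untreated. In all, 52 genes were TSA-only in at least 2 lines and 2 in all 3, and no gene was S2101-only in more than 1 line. The 2 were LILRB5, a leukocyte receptor gene, with 63 reads against 1 (ratio 72.8, 95% exact counting interval 12.6 to 2920), and STMN4, a neuronal stathmin, with 56 reads against 1 (ratio 64.7, interval 11.1 to 2600). STMN4 did not pass without the A549 S2101 library (adjusted p = 0.0656). On the other side, UGT1A9, a glucuronidation enzyme, read at 7.87, 6.68 and 0 CPM with S2101 and 0.0663, 0.7397 and 0 CPM with TSA, and its first exon is one of several that share the later exons of the locus, so reads may be split. BTC, an EGF family ligand, read at 3.76, 1.96 and 2.69 CPM with S2101 and 0.133, 0.0616 and 1.02 CPM with TSA, and the pseudogene GGT3P at 4.16, 2.88 and 0.0549 CPM with S2101 and 0.53, 0.0616 and 0 CPM with TSA. Without the A549 S2101 library UGT1A9 and BTC did not pass (adjusted p = 0.0586 and 0.0511).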

How the data were processed

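The authors deposited, per the file headers, 1 table per library with raw read counts per gene and RPKM values. The deposited RPKM values were used only to check library totals, which they put 0.182 to 0.229% above the summed counts. The submitters' processing notes name builds GRCh38 and hg38, and no label or header names an aligner or counter. Of 25648 genes listed, ZZZ3 was missing from 1 table and was left out, an entry naming no gene in 11 tables was dropped, and 25 of 26 symbols turned into dates were restored from transcript accessions. RefSeq (GRCh38.p14) matched 24952 genes (97.3%) and gave coordinates.

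Counts were tested with edgeR 4.0.16 (R 4.3.3), TMM factors 0.889 to 1.118, filterByExpr and the quasi-likelihood F test. The model held all 12 libraries with terms for condition and cell line (6 residual degrees of freedom, common biological coefficient of variation 0.296). Libraries are paired by cell line, which the labels give. Calls are Benjamini-Hochberg adjusted p under 0.05. DESeq2 1.42.0 was an alternative. The scripts were tested on simulated data. P-values of the fit measure the spread left after the condition and cell line terms, moderated across genes. That spread is how condition differences vary from line to line, pooled over all conditions, untreated and GSK126 included. It is not the spread of the TSA minus S2101 difference alone. Detection and silence thresholds (1 and 0.1 CPM) use library totals, and differences within a line use log2(CPM + 1). Intervals of read ratios cover counting error only.

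The members and the 36 lists were chosen with earlier results of these data known. Genes were named by a rule: the 12 largest differences in each direction with a mean of at least 5 CPM and 1 sign in all lines, up to 4 called members of each list, the main chromatin genes, the 3 largest differences of each line and direction at 50 CPM or more, and the leading genes silent with 1 compound. GLRX, KLF6 and SCG5 fall outside it and were chosen after their values were seen. A few genes of the lists are counted with their list and not reported here by name.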

Additional observations from a re-analysis of the deposited data

How the results depend on the processing

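The number of calls depended on the fit far more than the direction did. RLE factors gave 4521 calls, testing all genes with a read 4160, testing those at 10 CPM in 3 libraries 3364 and DESeq2 5572, each within 1.5 times the reported 4505. Without the cell line as the replicate block no gene was called (0 in either direction, 2607 genes at an unadjusted p under 0.05, smallest adjusted p 0.073). The fit on the 6 TSA and S2101 libraries also called 0, with a smallest adjusted p of 0.0511. The 9 libraries without GSK126 gave 2836 calls, 1302 higher with TSA and 1534 higher with S2101. Without the A549 S2101 library the calls numbered 1926, with 878 and 1048 by direction. Leaving out MHCC97H, A549 and HCT116 in turn gave 0, 17 and 5144 calls, of which 0, 14 and 2507 were higher with TSA and 0, 3 and 2637 higher with S2101. These fits have fewer samples, and beyond that the cause was not tested. All called genes that the edgeR alternatives tested kept their sign, and in DESeq2 4504 of 4505 did. The alternatives reuse the libraries on which the calls were made, which favours a kept sign. Against 50.9% in the reported fit, the share of calls higher with TSA ran from 45.6 to 53.4% over the alternatives with more than 1000 calls. The mean excess of genes detected with TSA was 1277 at 0.1 CPM, 503 at 5 CPM and 1072 after thinning to the smallest library, and 977 to 1192 with 1 line left out. Genes seen with S2101 alone fell to 7 in MHCC97H at thresholds of 0.2 and 2 CPM and to 1 in HCT116 after thinning. By the position of untreated, leaving out MHCC97H, A549 and HCT116 in turn gave 394, 656 and 360 genes between the compounds with TSA above and 466, 584 and 566 with TSA below. TSA was farther above for 678, 519 and 1021 and farther below for 821, 717 and 987, and S2101 was farther above for 5, 2 and 5 and farther below for 0, 0 and 1, larger since fewer lines had to agree. Depth limits what is said of genes near the 0.157 to 0.205 CPM that 3 reads make.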

Other observations

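For some genes the compounds differed in opposite directions by line. At least a 2-fold difference on log2(CPM + 1) in favour of TSA in 1 line and of S2101 in another was seen for 244 of 16929 tested genes, and at least 4-fold both ways for 17. The 17 were looked up after their values were seen, and the examples below were chosen from them in the same way. The neuronal complexin gene CPLX2 read at 85.5, 908 and 0.586 CPM untreated, 47.9, 785 and 0.714 with S2101 and 6.49, 108 and 12.6 with TSA. KRT81, a hair keratin, read at 0.632, 3349.5 and 0.469 CPM untreated, 0.636, 3291 and 2.69 with S2101 and 5.897, 812 and 0.662 with TSA. AKR1C3, an aldo-keto reductase, read at 580, 1260.4 and 0.352 CPM untreated, 589, 1362 and 1.703 with S2101 and 134, 150.4 and 11.8 with TSA. LONRF2 read at 219, 63.7 and 7.62 CPM untreated, 161, 81.1 and 2.36 with S2101 and 62.5, 15.4 and 94.1 with TSA. In CPLX2, AKR1C3 and LONRF2, TSA was below S2101 in MHCC97H and A549, where the gene was high untreated, and above it in HCT116, where it was low. KRT81 was lower with TSA in A549, its high line, and higher in MHCC97H. ACSL5, a fatty acid activating enzyme, read at 75.1, 0.276 and 139 CPM untreated, 112, 0.524 and 155 with S2101 and 9.21, 8.69 and 189.7 with TSA, and was lower with TSA in MHCC97H and higher in A549. The difference between lines was not tested.

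Fewer genes had a wide range across the lines with TSA than untreated or with S2101. A range across the 3 lines of at least 4 log2 units was held by 778 tested genes untreated (4.6%), 790 with S2101 (4.67%) and 411 with TSA (2.43%). Of the 778, 687 (88.3%) had a smaller range with TSA than with S2101, against 49.2% of all genes tested, and their median range was 4.97 untreated, 4.95 with S2101 and 3.39 with TSA. The 778 were chosen for a wide range in the untreated libraries, and S2101 lay nearer to untreated than TSA did. That choice favours a smaller range with TSA, so the 49.2% of all genes is not a matched share. The median range over all genes was 0.89 untreated, 0.92 with S2101 and 0.99 with TSA.

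Genes with untreated between the compounds in all 3 lines, picked after their values were seen, included GATA3, a transcription factor (2.11, 5.45 and 1.41 CPM untreated, 1.21, 4.25 and 0.769 with S2101 and 9.81, 10.05 and 9.62 with TSA), and TFPI, an inhibitor of coagulation (339.8, 58.6 and 18.2 CPM untreated, 492, 129 and 29.4 with S2101 and 51.7, 6.84 and 7.04 with TSA). GATA3 was below untreated with S2101 and above it with TSA in each line, and TFPI the reverse. CSRP2 (1.26, 12.8 and 19.6 CPM untreated, 0.983, 11.3 and 14.8 with S2101 and 20.7, 31.1 and 48.1 with TSA) followed GATA3, and GCNT3, a mucin-type glycosyltransferase (191, 171 and 1.52 CPM untreated, 248, 273 and 4.999 with S2101 and 46.5, 14.1 and 1.26 with TSA), followed TFPI.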
